A study of Mus musculus with 15 samples.

Results

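Leukemic spleens of mice with NOTCH1-driven T cell leukemia differed several-fold in the RNA of red cell precursors. The comparison set 2 leukemias that were rich in this RNA (WT0 given PBS, and KO7) against 2 that were poor in it (WT6 and KO3). Each leukemia was represented by 3 RNA-seq libraries, so that 12 of the 15 libraries of the series entered, 6 on each side. The split was chosen from the data: summed over 135 genes of the erythroid lists, the share of all counts was 2.56% to 2.75% in the 6 poor libraries and 6.85% to 9.26% in the 6 rich ones. The highest poor library (WT6 replicate 3, 2.75%) and the lowest rich library (WT0 replicate 3, 6.85%) stood on either side of the gap. Erythroid genes therefore differ between the sides by construction, and their rich-minus-poor differences are given as a description, with counts of calls from which nothing is read. Each side held 1 wild-type and 1 Bcat1 knock-out leukemia. Knock-out against wild type, and the interaction of side and genotype, are other contrasts. Since the split needed a difference in both genotypes, the interactions of erythroid genes rest on values it used and are also given as a description.

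All of the leukemias arose from GFP+ Lineage- cKit+ Sca1+ bone marrow progenitors that carried deltaE-NOTCH1, a form of NOTCH1 that is active without its ligand. They grew in lethally irradiated C57BL/6J hosts. Donor progenitors were Bcat1 wild-type for WT0 and WT6 and Bcat1 knock-out for KO7 and KO3, and by their labels all 4 received PBS. Alignment names in the table's header call the WT0 vehicle libraries DMSO. The 3 remaining libraries came from WT0 given ERG-245, a BCAT1 inhibitor, in 3 intraperitoneal doses of 30 mg/kg at intervals of 8 h. They were not used for the split and are shown as held-out values. There was 1 leukemia for each genotype on each side. The labels do not say that the libraries of a leukemia came from separate mice, and the design text speaks of 5 samples. P-values and standard errors (SE) over libraries therefore reflect only how libraries of a leukemia varied, and this variation may be technical.

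Red cells form in mice both in the bone marrow and, under demand, in the red pulp of the spleen. Committed progenitors respond to erythropoietin through its receptor. The transcription factors GATA1 and KLF1 then switch on globin, heme and membrane skeleton genes together, before the nucleus and organelles are lost. In bulk RNA, fewer cells of a type and less RNA per cell cannot be told apart.

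Depth was 17441292 to 28902573 counts per library in the 4 leukemias. The libraries of a group correlated at 0.998 and those of different groups at 0.960 to 0.980 across genes, which are not independent replicates. The labelled T cell identity was visible on both sides: Lck, the proximal kinase of the T cell receptor, was at 687 to 869.8 CPM (counts scaled to library depth with TMM factors) in rich libraries and at 1032 to 1094 in poor ones. Immature thymocyte genes together took 0.811% of counts in WT0, 0.913% in KO7, 1.07% in WT6 and 1.02% in KO3. The leading T cell receptor beta V segment was another one in each leukemia: Trbv17 in WT0 (39.7% of all beta V counts), Trbv5 in KO7 (79.1%), Trbv19 in WT6 (54.4%) and Trbv15 in KO3 (85.6%). In the held-out libraries it was Trbv16 (49.9%), which differs from that of WT0 given PBS although both bear the WT0 label. Bcat1, the targeted gene, was at 17.9 ± 0.96 CPM in WT0, 35.2 ± 0.388 in WT6, 2.09 ± 0.596 in KO7 and 6.95 ± 0.836 in KO3 (SD, n = 3 libraries). Knock-out libraries were below wild-type libraries on each side of the split, and KO7 and KO3 each kept a measurable level.

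Promoters of 6 erythroid genes are shown because these genes stand for the roles described below and stood apart between rich and poor libraries. Each run covers 250 bases before to 50 bases after a RefSeq start (build GRCm38.p6), 5′ to 3′ on the gene's strand. Capitals mark the GATA word, which is GATA with A or T before it and A or G after it, the type that GATA1 binds. They also mark the CACCC word CCNCACCC, the type that KLF1 binds. Both were searched on both strands, and no GATA match shown overlaps a CACCC match. Hba-a1 (chr11:32283422-32283721, plus strand) and Hbb-bs (chr7:103827879-103828178, minus strand) encode adult globin chains. Klf1 (chr8:84901732-84902031, plus strand) and Hemgn (chr4:46404134-46404433, minus strand) encode nuclear regulators. Epor (chr9:21963527-21963826, minus strand) encodes the erythropoietin receptor and Epb42 (chr2:121036828-121037127, minus strand) a membrane skeleton protein.
Hba-a1: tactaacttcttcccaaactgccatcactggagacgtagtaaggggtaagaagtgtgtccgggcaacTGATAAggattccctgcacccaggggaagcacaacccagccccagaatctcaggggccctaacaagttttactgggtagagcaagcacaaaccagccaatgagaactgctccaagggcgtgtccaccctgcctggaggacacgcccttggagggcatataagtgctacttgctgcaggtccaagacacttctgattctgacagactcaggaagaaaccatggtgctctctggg
Hbb-bs: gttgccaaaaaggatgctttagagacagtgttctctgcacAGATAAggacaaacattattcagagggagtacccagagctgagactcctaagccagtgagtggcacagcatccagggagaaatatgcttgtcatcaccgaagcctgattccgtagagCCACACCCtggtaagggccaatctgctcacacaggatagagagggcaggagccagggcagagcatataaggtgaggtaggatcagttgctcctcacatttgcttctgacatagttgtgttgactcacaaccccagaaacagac
Klf1: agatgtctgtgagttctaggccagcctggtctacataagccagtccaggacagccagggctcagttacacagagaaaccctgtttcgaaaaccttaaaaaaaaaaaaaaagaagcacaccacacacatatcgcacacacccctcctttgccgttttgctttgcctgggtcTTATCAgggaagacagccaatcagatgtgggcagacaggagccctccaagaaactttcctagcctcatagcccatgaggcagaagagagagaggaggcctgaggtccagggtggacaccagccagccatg
Hemgn: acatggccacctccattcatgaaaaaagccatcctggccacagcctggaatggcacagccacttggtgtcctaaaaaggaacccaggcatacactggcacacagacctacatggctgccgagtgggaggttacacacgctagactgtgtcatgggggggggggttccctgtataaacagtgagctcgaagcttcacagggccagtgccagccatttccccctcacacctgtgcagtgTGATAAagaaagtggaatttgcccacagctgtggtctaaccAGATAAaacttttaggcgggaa
Epor: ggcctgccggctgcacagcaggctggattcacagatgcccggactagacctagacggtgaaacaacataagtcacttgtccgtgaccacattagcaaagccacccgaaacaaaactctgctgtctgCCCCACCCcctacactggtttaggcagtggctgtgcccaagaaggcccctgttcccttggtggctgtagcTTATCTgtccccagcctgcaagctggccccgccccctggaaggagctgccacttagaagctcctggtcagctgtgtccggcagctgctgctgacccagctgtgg
Epb42: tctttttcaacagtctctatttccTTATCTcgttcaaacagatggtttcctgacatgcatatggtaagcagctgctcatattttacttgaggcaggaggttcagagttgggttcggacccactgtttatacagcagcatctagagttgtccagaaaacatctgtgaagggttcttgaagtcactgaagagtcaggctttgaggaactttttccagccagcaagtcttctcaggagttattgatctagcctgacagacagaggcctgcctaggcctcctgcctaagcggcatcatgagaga
Each of the 6 windows held at least 1 GATA word, and Hemgn held 2. The CACCC word stood in the windows of Hbb-bs and Epor and not in the other 4. A GATA word was present in 29.8% of all 32851 promoter windows of the reference, in 28.7% of 150 windows of 102 tested erythroid genes, and in 41.7% of 72 windows of the 53 erythroid genes with an entry that stood apart and higher. Over the 16085 windows of 12614 autosomal genes tested, it was present in 21.0%. The CACCC word was in 16.6% of all windows, 19.6% of those of the genes tested, 21.3% of the erythroid and 20.8% of the erythroid ones that stood apart. These are descriptions of letters in a window, given without a test.

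Red cell genes were higher together in the rich leukemias, in the wild-type and in the knock-out pair alike. Of the 135 erythroid genes, 131 are autosomal and 128 passed the filter on low counts. The 3 that did not are embryonic or fetal globins (Hbb-bh1, Hba-x and Hbb-bh2), with 13, 15 and 4 counts over all 12 libraries. In both genotypes 107 of the 128 were above 0 and 7 below 0, namely Flvcr1, Ireb2, Slc2a1, Bach1, Alox15, Jak2 and Stat5b. The median rich-minus-poor log2 difference of the 128 was 1.38, with 1.33 for WT0 minus WT6 and 1.43 for KO7 minus KO3. The median over all 16693 autosomal genes tested was -0.0032. In the held-out libraries the median against the same poor leukemias was 1.64. Those libraries share the poor side with the split, so the values stand side by side only.

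A model of 2 leukemias against 2 (edgeR's quasi-likelihood test on counts summed per leukemia) called 160 autosomal genes higher in the rich side at an adjusted p under 0.05, which is 0.958% of the genes tested, and 2 genes lower (0.0120%). The 2 lower genes were Igkv3-7 and Igkv3-1, immunoglobulin light chain segments. Erythroid members made up 48 of the 160, which is 37.5% of the 128 tested. A second description asked for no overlap between rich and poor libraries and at least 2-fold in each genotype. It held for 590 genes that were higher (3.53% of those tested) and 217 that were lower (1.30%). Among the erythroid genes 71 were higher (55.5%) and 0 lower. Since the split rests on these genes, nothing is read from their counts against that background. With genotype as a covariate, or with any 1 leukemia left out, 0 genes were called, whereas 1909 genes had an unadjusted p under 0.05 in the model of 2 against 2.

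**Figure D1:**
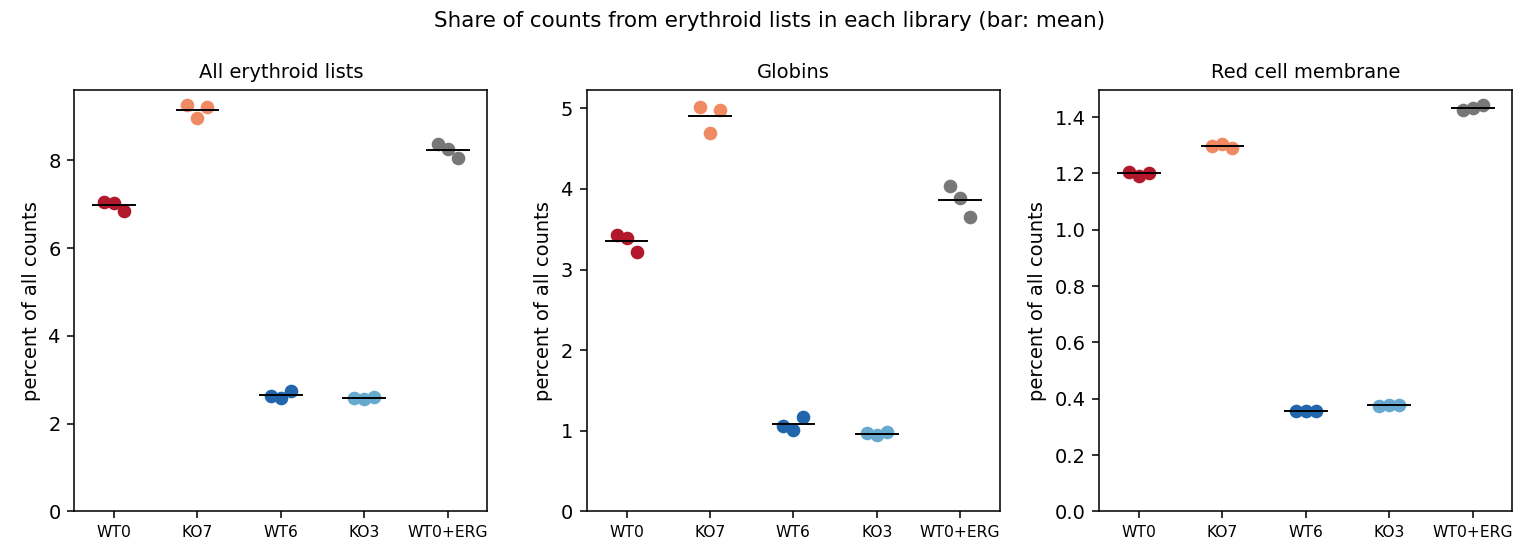
Share of all counts taken by all erythroid lists, the globins and the red cell membrane list in each of the 15 libraries, as percent on axes that start at 0. Points are libraries and bars are group means. All 6 rich libraries (WT0 and KO7) lie above all 6 poor ones (WT6 and KO3) in each panel, KO7 lies above WT0, and the libraries of WT0 with ERG-245 lie among or above the rich ones.

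Globins carry the oxygen of the red cell, and they were the most abundant erythroid transcripts on both sides. Hbb-bs, an adult beta globin, was at 17209, 21374 and 25761 CPM (lowest, median and highest of 6 libraries) in the rich leukemias and at 5022, 5316 and 6252 in the poor ones. Hba-a1, an adult alpha globin, was at 6925, 9284 and 12619.7 CPM against 1896, 2078 and 2519. No rich library of either gene came down to the poor range. Folds were larger in the knock-out pair: 4.75 against 3.19 for Hbb-bs and 5.97 against 3.14 for Hba-a1. Hba-a1 and Hba-a2, like Hbb-bs and Hbb-bt, are near-identical copies, so the division of counts within each pair is uncertain.

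Per kilobase of exon, Hbb-bs, Hba-a1, Hbb-bt and Hba-a2 kept ranks 1 to 4 among the erythroid genes in each of the 4 leukemias. The level of Hbb-bs was 28131 CPM per kilobase in WT0 and 8129 in KO3. All 7 tested globins stood apart, with Hbq1b, a theta globin, at a log2 difference of 2.27. Hbb-y, an embryonic beta-like globin, was near the detection limit at a mean of 0.23 CPM in WT0 and 0.0153 in KO3. In total, globins made up 3.35% of counts in WT0, 4.90% in KO7, 1.08% in WT6 and 0.965% in KO3.

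Heme is built in mitochondria and cytosol by a chain of enzymes, and 11 of its 13 autosomal genes stood apart. The median log2 difference was 1.59. Slc25a37, the mitochondrial iron importer mitoferrin, was at 1319.9, 1423 and 1515 CPM in rich libraries and at 293, 309 and 334 in poor ones. Its rich and poor libraries did not overlap. Fech, the enzyme that inserts iron into the ring, reached a log2 difference of 1.98, and Abcb10, a mitochondrial transporter, 2.16. Flvcr1, a heme exporter, went the other way in both genotypes at -0.29, with 38.9 to 40.5 CPM in rich and 45.9 to 52.4 CPM in poor libraries. Alas2, the first enzyme of the erythroid pathway, is X-linked and so outside the autosomal count. Its log2 difference was 2.23.

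The membrane and its skeleton give the red cell its shape and blood group antigens, and 22 of 26 tested genes of this role stood apart. The median log2 difference was 2.10. Slc4a1, the anion exchanger band 3, was at 2973, 3116 and 3236 CPM in rich libraries and at 542, 569.7 and 584 in poor ones, 5.43-fold in wild type and 5.53-fold in knock-out. Epb42, whose promoter is printed above, was at 263, 275 and 286 CPM against 52.9, 56 and 59.3. Rich and poor libraries of both genes were separated by wide gaps. Kel, the Kell blood group protease, was 7.6-fold higher in the wild-type pair and 4.55-fold higher in the knock-out pair, and Dmtn, the actin-bundling dematin, 6.68-fold and 5.09-fold. Ank1, the ankyrin that ties band 3 to spectrin, had a log2 difference of 2.45.

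The 4 membrane genes that did not stand apart were Kcnn4, a calcium-activated potassium channel (log2 0.32), Piezo1, a mechanosensitive channel (0.31), Slc29a1, a nucleoside transporter (0.17), and Slc2a1, a glucose transporter (-0.34). Slc29a1 and Piezo1 had opposite signs in the genotypes. Kel and Slc4a1, picked among membrane genes with large differences, also ranked higher among erythroid genes on the rich side, which restates those differences. Per kilobase of exon, Kel ranked 31 in WT0 and 46 in KO7, against 68 in WT6 and 63 in KO3, and Slc4a1 ranked 9 and 11 against 15 and 15.

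Erythroid transcription factors were split between genes that stood apart and genes near 0. Klf1 was at 145, 158 and 167 CPM in rich libraries and at 37.1, 37.9 and 40.3 in poor ones. Hemgn, hemogen, was at 415, 430.5 and 452 CPM against 94.8, 97 and 103. Neither gene's groups overlapped. The other 8 autosomal genes that stood apart were Sox6 (log2 2.27), Gfi1b (2.14), Nfe2 (2.12), Tal1 (1.75), Lmo2 (1.64), E2f2 (1.40), Zfpm1 (1.37) and Tfdp2 (1.35). These are DNA-binding factors and partners of the erythroid program, with E2f2 and Tfdp2 acting in cell cycle exit. Gata1, its master regulator, is X-linked and had a log2 difference of 1.87. In contrast, Ldb1 (0.12), Rcor1 (0.10) and Bach1 (-0.21), cofactors and a repressor found in many cell types, lay near 0.

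The erythropoietin receptor stood apart, whereas the signal carriers behind it lay near 0. Epor was at 97.7, 101 and 104 CPM in rich libraries and at 22.3, 25.1 and 27.6 in poor ones, and it was the only 1 of 15 genes of this role that stood apart. The signal carriers Jak2 (log2 -0.07), Stat5a (0.03) and Stat5b (-0.14) lay near 0, and their rich and poor levels were close. Kit, the stem cell factor receptor of early progenitors, was at 16.6, 19.9 and 22.9 CPM against 10.8, 11.7 and 12.7. Myb, a factor of immature cells, was at 328, 344 and 358 CPM against 344, 352 and 359, and these ranges overlapped. The median log2 difference of the 15 genes was 0.11, with 0.13 for WT0 minus WT6 and 0.86 for KO7 minus KO3.

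Targets of the receptor differed more in the knock-out pair. Cish, a feedback inhibitor, was 3.26-fold higher in KO7 than in KO3 and 1.44-fold higher in WT0 than in WT6. Bcl2l1, a survival factor, was 3.32-fold and 1.51-fold higher. In the held-out libraries Cish stood at 191 ± 1 CPM (SD, n = 3), against 45.6 ± 2.33 in KO7 and 23.3 ± 0.905 in WT0, and Pim1, a kinase induced by cytokines, at 457 to 465 CPM, against 182 to 274 CPM in rich libraries.

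Iron genes differed less. Tfrc, the transferrin receptor, was at 1116, 1155 and 1235 CPM in rich and 419, 471 and 521 in poor libraries. Tfr2, the iron sensor that pairs with the erythropoietin receptor, was at 35.1, 37.3 and 41.2 CPM against 12.2, 14.3 and 16.5. These were the 2 of 15 that stood apart. Erfe, the hormone erythroferrone, was at 31.4 ± 1.23 CPM in WT0 and 68.7 ± 2.09 in KO7, against 17.1 ± 0.167 in WT6 and 21.6 ± 0.777 in KO3. It reached 179 ± 5.05 CPM in the held-out libraries, above each of the other 12. Slc11a2, the endosomal iron transporter, was higher in WT0 than in WT6 (222 against 95.8 CPM) and lower in KO7 than in KO3 (121 against 140.1 CPM).

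Maturation genes clear organelles and remodel the cell, and 9 of 17 stood apart. Ypel4 was at 123, 149 and 179.7 CPM in rich libraries and at 22.5, 25.1 and 28.4 in poor ones. Trim58, a ubiquitin ligase of enucleation, was at 25.2, 29.4 and 33.6 CPM against 4.97, 6.02 and 6.68, and Ube2o, which clears ribosomes, had a log2 difference of 1.82. The general autophagy genes Map1lc3b (log2 0.43) and Gabarapl2 (0.46) did not stand apart. Alox15, a lipoxygenase, was the 1 gene of this role below 0 in both genotypes, at a log2 difference of -1.47, with 0.303 to 1.78 CPM in rich and 1.59 to 4.17 in poor libraries, which overlapped.

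Of 16 enzymes of the red cell, 9 stood apart. Car2, carbonic anhydrase 2, was at 1123, 1402 and 1683 CPM in rich libraries and at 343, 362 and 379 in poor ones. Bpgm, which makes the regulator of oxygen release 2,3-bisphosphoglycerate, was at 279 ± 5.15 CPM in WT0 and 709.6 ± 13.5 in KO7, against 151 ± 1.41 in WT6 and 125 ± 2.2 in KO3. The libraries of Bpgm did not overlap, but WT0 was less than 2-fold above WT6. All 16 enzymes were above 0 in both genotypes.

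**Figure D2:**
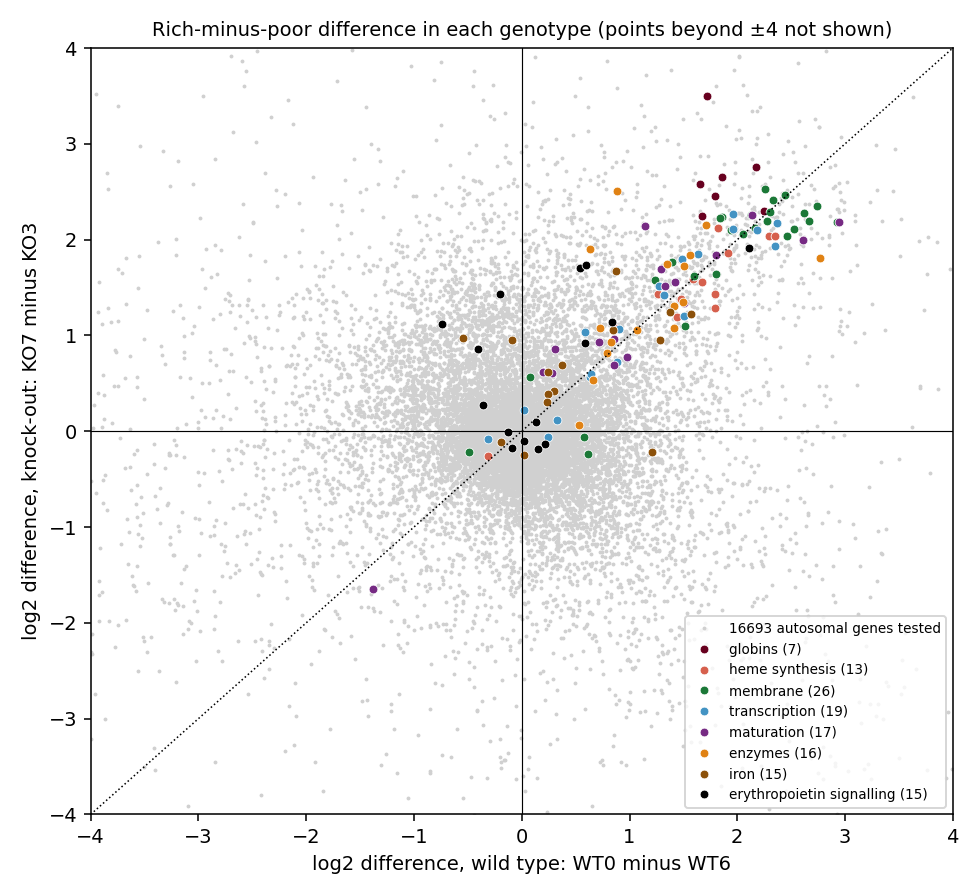
Rich-minus-poor log2 difference in wild type (x axis, WT0 minus WT6) against that in knock-out (y axis, KO7 minus KO3) for 16693 autosomal genes (grey) and the 8 erythroid roles (colours), with the diagonal dotted and points beyond 4 on either axis not shown. Most membrane, heme and transcription genes lie near the diagonal in the upper right, globins lie above it, and erythropoietin signalling genes spread around 0.

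Whether the signed difference was the same in both genotypes was tested as the interaction of side and genotype over 12 libraries, with edgeR's quasi-likelihood test and Benjamini-Hochberg adjustment. Over all autosomal genes, the signed rich-minus-poor difference was higher in wild type for 5372 of 15282 (35.2%) and higher in knock-out for 5410 (35.4%). Higher here means more positive, so that a gene with a deeper drop in wild type counts as higher in knock-out. In the erythroid lists 44 of 127 tested genes (34.6%) were higher in wild type and 60 (47.2%) higher in knock-out, and 23 were not called. Nothing is read from these counts, since the split used the same values. The median size of the interaction was 0.27 for erythroid genes and 0.49 for all genes. The median size of the rich-minus-poor difference was 1.39 and 0.28. Because the split needed erythroid RNA to differ in both genotypes, nothing is read from these sizes either. With 1 leukemia for each genotype on each side, genotype and leukemia cannot be told apart.

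The balance differed by role. Among the 6 globins tested, 0 were higher in wild type and 4 higher in knock-out, with Hba-a1 at an interaction of -0.92 ± 0.05 (SE) and Hbb-bs at -0.56 ± 0.05. A negative value means that the signed rich-minus-poor difference was higher in knock-out. Kel at 0.75 ± 0.05 and Ypel4 at 0.77 ± 0.06 went the other way, as did Fn3k, a fructosamine kinase, at 0.98 ± 0.10. For Slc4a1 the interaction was -0.01 ± 0.03 and for Epb42 0.02 ± 0.05.

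The size of the interaction exceeded 1 on the log2 scale for 10 erythroid genes. Bpgm was at -1.61 ± 0.04 and Car1, carbonic anhydrase 1, at -1.26. The receptor targets Cish (-1.16), Bcl2l1 (-1.12) and Socs3 (-1.25), the iron genes Hfe (-1.51) and Ftl1 (-1.03), the progenitor factor Gata2 (-1.62) and the BMP receptor Bmpr1a (-1.85) were also higher in knock-out. Slc11a2 (1.44) was the exception, higher in wild type.

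Markers of a macrophage that serves red cells were at their highest in KO7. Red pulp macrophages engulf old red cells, and their 21 marker genes took 0.513% of counts in KO7, 0.169% in WT0, 0.234% in WT6, 0.199% in KO3 and 0.212% in the held-out libraries. Their median log2 difference was 1.40 for KO7 minus KO3 and -0.25 for WT0 minus WT6, and for 20 of 21 the signed difference was higher in knock-out by edgeR's interaction test, against 35.4% of all genes. Of the 21, 5 were above 0 in both genotypes and 0 below 0 in both, against 4329 and 4235 of the 16693 autosomal genes tested. The genes named next were taken from those 5. Cd5l, a macrophage scavenger protein, was at 333 ± 2.91 CPM in KO7, 103 ± 0.906 in WT0, 60.3 ± 0.491 in WT6 and 86.7 ± 0.863 in KO3 (SD, n = 3 libraries). Slc40a1, the iron exporter ferroportin, was at 305, 182, 156 and 137 CPM in the same order. Marco, a scavenger receptor, was the 1 marker of 21 that stood apart, and 0 were called. Of all autosomal genes tested, 3.53% stood apart and higher. The part of these cells in the values of KO7, including Ftl1 and Hfe, was not tested.

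Knock-out against wild type, across both sides, called 0 autosomal genes in edgeR (0% of 16693). At an unadjusted p under 0.05 there were 216 genes, and DESeq2 called 39. None of the erythroid genes was called by edgeR. The smallest adjusted p of this edgeR test over all autosomal genes was 0.928, and even Bcat1, the targeted gene, was not called. The absence of calls therefore cannot show that genotype had no effect. The erythroid genes' median knock-out minus wild-type log2 difference was 0.14. The biological coefficient of variation was 41.9% between leukemias of a genotype, 35.5% between leukemias of a side and 2.23% between libraries of a leukemia.

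**Figure D3:**
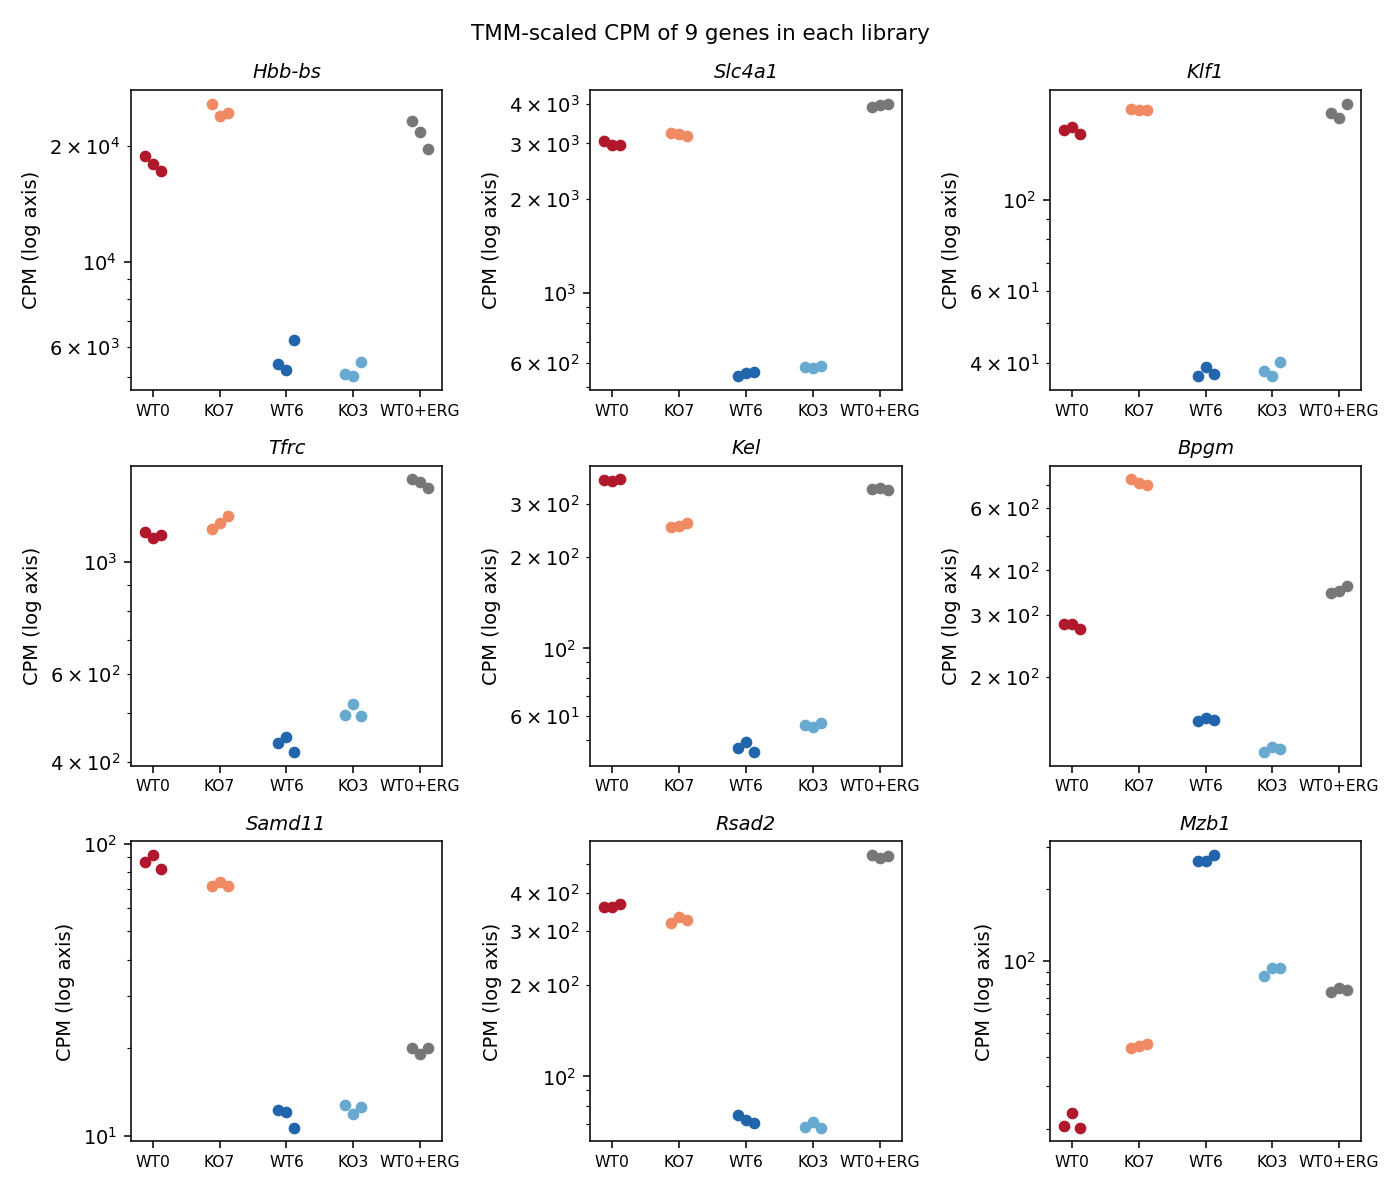
TMM-scaled CPM on log axes for 9 genes in each library (points) of WT0, KO7, WT6, KO3 and WT0 with ERG-245. Hbb-bs, Slc4a1, Klf1, Tfrc, Kel, Rsad2 and Samd11 are higher in WT0 and KO7 than in WT6 and KO3, Bpgm is highest in KO7, Mzb1 is highest in WT6, and Samd11 is at 19 to 20 CPM in the ERG-245 libraries.

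Of the 160 autosomal genes called higher, 112 were outside the erythroid lists. Gene models (such as Gm31326, log2 2.89), pseudogenes and immunoglobulin or T cell receptor genes were left out of the ranking that follows. Among the other autosomal genes that stood apart, erythroid or not, with a mean of at least 5 CPM, Samd11 (log2 2.72) led the 15 of greatest difference. Samd11 was at 71.6, 77.7 and 91.3 CPM in rich libraries and 10.7, 12.2 and 12.7 in poor ones. Ccdc92b was at 20.3, 29.4 and 43.1 CPM against 4.15, 4.75 and 5.07. Cacna1g, a T-type calcium channel, was at 16.7 ± 1.38 CPM in WT0 and 3.74 ± 0.724 in KO7, against 1.79 ± 0.537 and 1.48 ± 0.255 in WT6 and KO3. The others were Ypel4, Kel, Dmtn, Phospho1, Slfn14, Nrip3, Slc6a9, Abcg4, Ache, Slc4a1, Tmcc2 and Specc1, with log2 differences of 2.45 to 2.57. Slc6a9, a glycine transporter that feeds heme synthesis, was at 138, 147 and 148 CPM against 24.5, 26.2 and 27.4.

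Held-out levels differed among these 15. Samd11 stood at 19 to 20 CPM and Ccdc92b at 8.86 to 10.8, each between the poor and the rich range. Slc6a9 stood at 172 to 176 CPM, Abcg4, a sterol transporter, at 94.6 to 97.6 and Nrip3 at 22 to 22.7, each above every rich library. Tmcc2 (755 to 766 CPM) and Specc1 (174 to 175 CPM) lay within or at the edge of the rich range, which ran from 574 to 899 and from 157 to 175 CPM.

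Among the interferon genes, 3 of 30 were called higher and 5 stood apart and higher. Over all autosomal genes tested, the shares were 0.958% and 3.53%. Of the 30, 18 were above 0 in both genotypes and 4 below 0 in both, against 4329 and 4235 of the 16693 autosomal genes tested. Rsad2, the antiviral enzyme viperin, was at 319.9, 346 and 367 CPM in rich libraries, 67.9, 70.7 and 74.6 in poor ones and 522 to 533 in held-out ones. Isg15, a ubiquitin-like protein, was at 107, 119 and 133 CPM against 32.1, 35.7 and 38.8, and Cmpk2, a mitochondrial kinase, at 49, 51.4 and 54.3 against 15.6, 16.5 and 18. The groups of all 3 genes were apart, and none had a called interaction (adjusted p = 0.0546, 0.77 and 0.599). The median of the 30 genes was 0.60. The promoter of Rsad2 (chr12:26456403-26456702, minus strand, GRCm38.p6) is shown with its interferon-stimulated response element word GAAANNGAAA in capitals, a word present in 3.44% of all promoter windows on either strand.
Rsad2: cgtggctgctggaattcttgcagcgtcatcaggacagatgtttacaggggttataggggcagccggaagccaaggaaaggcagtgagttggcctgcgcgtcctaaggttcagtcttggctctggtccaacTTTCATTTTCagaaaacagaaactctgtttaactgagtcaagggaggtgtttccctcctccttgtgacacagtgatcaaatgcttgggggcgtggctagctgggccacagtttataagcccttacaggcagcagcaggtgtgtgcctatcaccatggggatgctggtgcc
Stress and growth lists gave smaller differences. The 19 glutathione genes tested had a median log2 difference of 0.36, from -1.15 to 1.63. Of these, 8 were above 0 in both genotypes and 4 below 0 in both. Gclm and Gclc, subunits of the rate-limiting glutathione ligase, were the 2 called, at log2 1.54 and 1.06. Nqo1, a quinone reductase, stood apart at 1.63. Its held-out level was 63.8 to 71.1 CPM, against 14 to 21.8 in rich and 4.79 to 7.23 in poor libraries. Of 25 mitotic (G2/M) genes 22 were above 0 in both genotypes with a median of 0.42, and 0 stood apart. Over all 16693 autosomal genes tested, 0.958% were called higher and 3.53% stood apart and higher. Of these 16693 genes, 4329 were above 0 in both genotypes and 4235 below 0 in both. Mki67, the proliferation marker Ki-67, was at 1503, 1836 and 2215 CPM against 781, 821 and 885, and Ccna2, cyclin A2, at 384, 425 and 459.6 against 257, 260.4 and 262.

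Of the 217 genes that stood apart and lower, 95 uncalled ones and the 2 called were gene models, pseudogenes or immunoglobulin or T cell receptor genes. These were left out of the naming, and many were immunoglobulin genes, such as Ighe (log2 -3.66), Ighv1-18 (-4.23) and Ighv1-2 (-6.49). The 120 other genes that were lower in the rich leukemias included products of macrophages. Retnla, a product of alternatively activated macrophages, was at 0.533, 2 and 4.29 CPM in rich libraries and at 27.6, 68.6 and 112 in poor ones. Arg1, arginase 1 of the same cells, was at 0.266, 1.71 and 3.47 CPM against 23.3, 29.4 and 34.9. Ccl8, a chemokine, was at 1.91, 8.74 and 16.4 CPM against 79, 103 and 138. In these 3 genes WT0 lay below KO7, and both lay below every poor library. Other genes named from this set were H2-M2, Mmp12, H19, Atp6v0d2, Slpi, F10, Mpo, Ccl24, Apol7c, Pla2g2d and Clec7a, with log2 differences from -4.09 to -2.21.

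Marker lists of granulocytes, monocytes and plasma cells had medians below 0 in both genotypes, to unequal extents. Of 13 basophil and mast cell genes 8 stood apart and lower (median log2 -2.04), of 17 neutrophil genes 4 (-1.58), of 15 monocyte genes 3 (-0.93) and of 16 plasma cell genes 1 (-1.31). Over all 16693 autosomal genes tested, 217 (1.30%) stood apart and lower. For WT0 minus WT6 and KO7 minus KO3 the medians were -2.65 and -1.17 for basophil and mast cell genes, -2.40 and -0.50 for neutrophil genes, -1.16 and -0.54 for monocyte genes, and -2.75 and -0.28 for plasma cell genes. Without the WT6 leukemia the monocyte median was 0.01, the neutrophil median -0.86 and the plasma cell median -0.58, and without KO3 the monocyte median was -1.57. The plasma cell list took 0.252% of counts in WT0, 0.620% in KO7, 1.64% in WT6 and 0.563% in KO3, so that KO7 was not below KO3. Neutrophil markers were low in all libraries: the list took 0.00829% of counts in WT0, 0.0149% in KO7, 0.0413% in WT6 and 0.0212% in KO3. Basophil and mast cell markers were lower still, at 0.000998%, 0.00241%, 0.00558% and 0.00322% in the same order. The 8 of them that stood apart had means from 0.135 CPM (Tpsab1) to 3.27 CPM (Cpa3), near the detection limit for some. Mzb1, a chaperone of plasma cells, was at 20.1, 33.4 and 45 CPM in rich libraries and at 86.9, 178 and 278 in poor ones. Ighg1, an immunoglobulin heavy chain, was at 193 CPM in WT0, 754 in KO7, 4561 in WT6 and 1237 in KO3. Immunoglobulin genes together took 2.51% of counts in WT6 and 0.239% in WT0, with 0.768% in KO7 and 0.758% in KO3. Platelet genes, from the lineage closest to red cells, did not share the split, with a median of -0.14 and 0 of 15 apart.

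**Figure D4:**
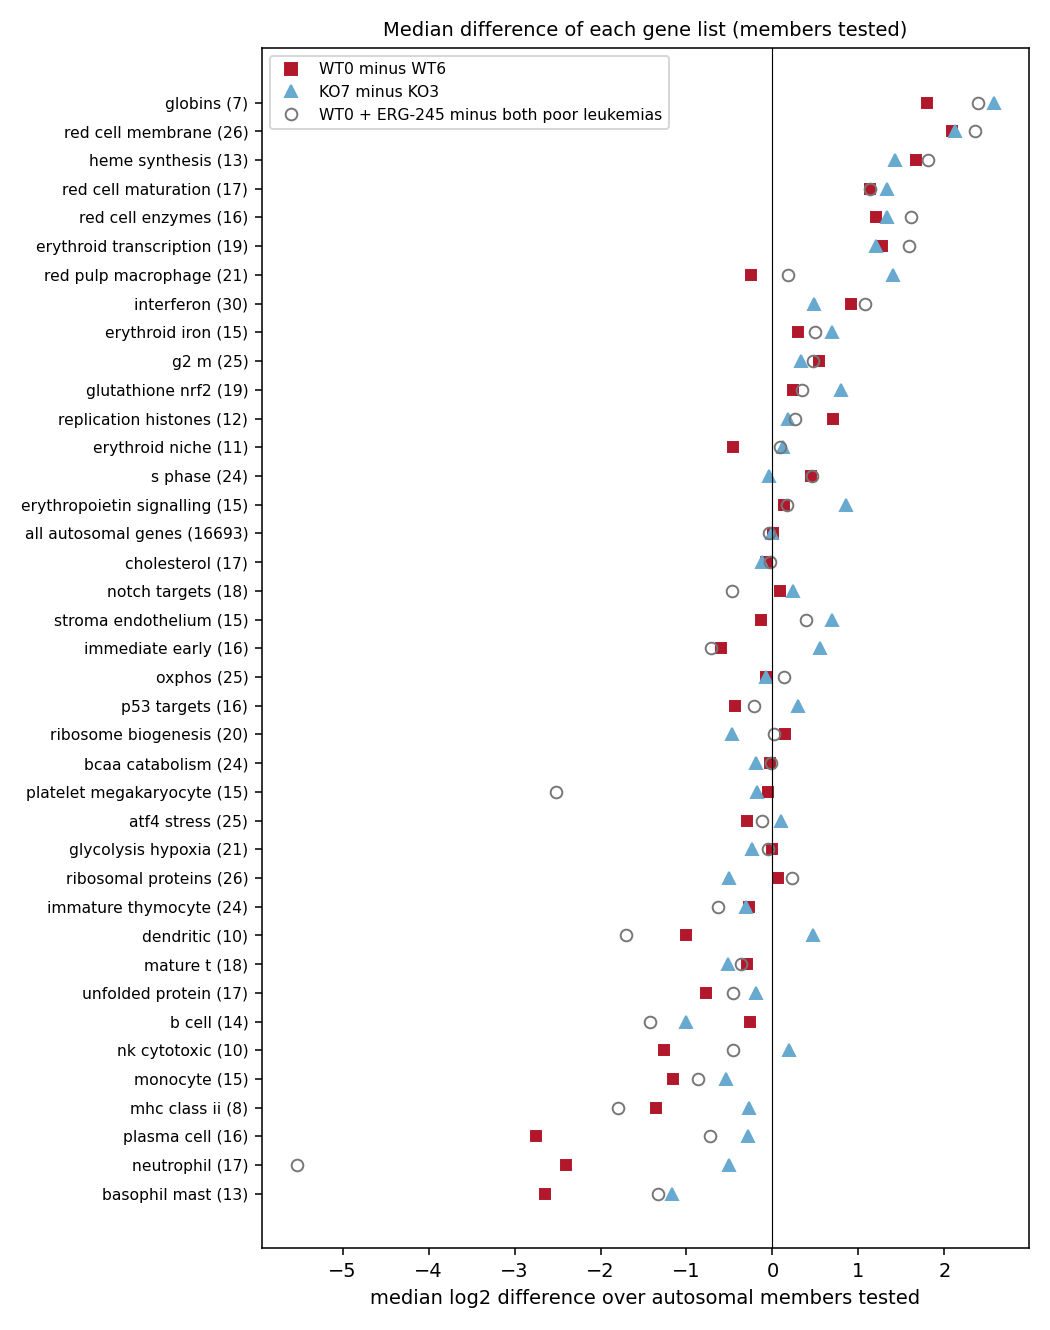
Median log2 difference of each gene list (rows, number of autosomal members tested in brackets) for WT0 minus WT6 (squares), KO7 minus KO3 (triangles) and WT0 with ERG-245 minus both poor leukemias (open circles). Globin, membrane and heme lists are at the top with all marks above 1, the red pulp macrophage list has its squares and triangles on either side of 0, and myeloid and plasma cell lists are at the bottom.

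T cell and NOTCH1 genes differed little by comparison. The median of 24 immature thymocyte genes was -0.24 and that of 18 NOTCH1 targets -0.03, with 0 apart in either list. Cd2, an adhesion receptor of T cells, was at 134, 147 and 163 CPM in rich libraries and at 229, 249 and 262 in poor ones, and Il2ra, the CD25 chain of the interleukin 2 receptor, at 494, 553 and 618 against 664, 715 and 775. Both genes were lower in all 6 rich libraries. Most members of the lists did not share a direction in both genotypes. Of the 24 immature thymocyte genes, 8 were below 0 in both and 1 above 0 in both. Of the 18 NOTCH1 targets, 3 were below 0 in both and 5 above 0 in both. Over all 16693 autosomal genes tested, 4235 were below 0 in both and 4329 above 0 in both. Of the same genes, 3.53% stood apart and higher and 1.30% apart and lower.

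Genes with the greatest interaction, among those that could be named, were outside the erythroid lists. Mn1, a transcriptional cofactor, was at 0.443 ± 0.0843 CPM in WT0 and 18.1 ± 1.37 in WT6, and at 18.7 ± 0.696 in KO7 and 0.747 ± 0.162 in KO3 (interaction -9.94 ± 0.21, adjusted p = 3.05e-49). Cux2, a homeobox factor, was at 18.4 ± 1.53 CPM in WT0 and 1.65 ± 0.227 in WT6, and at 0.898 ± 0.294 in KO7 and 9.77 ± 0.105 in KO3 (interaction 6.93 ± 0.20, adjusted p = 3.7e-41). Each gene was high in 1 rich and 1 poor leukemia. Both the SE and the adjusted p here reflect only the spread between libraries of a leukemia, not that between leukemias.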

How the data were processed

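RNA from leukemic spleens was sequenced with a stranded mRNA kit. The authors deposited 1 table of raw counts per gene: per the file headers, featureCounts 2.0.1 counted reads on mm10 with strand setting 2 and a minimum overlap of 25 bases, beside each gene's exon length and coordinates (column kind other) in the same deposited table. The submitters' processing notes also name Trim Galore, STAR, Subread and DESeq2. Of the table, 9 broken lines, which touch 3 genes, were left out, and 39827 genes were read.

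Counts were summed per leukemia (or kept per library for the interaction), filtered with edgeR's filterByExpr, scaled with TMM and tested with edgeR 4.0.16 in R 4.3.3 at an adjusted p under 0.05. Scripts were tested on simulated data. Named genes were the 15 of greatest difference per direction among those standing apart with a mean of at least 5 CPM. Gene models, pseudogenes and immunoglobulin or T cell receptor genes were left out of this ranking and of that by interaction. From each gene list came up to 4 members of greatest difference in size, with that mean and the same direction in both genotypes. The 5 with the greatest interaction per direction, the members of the erythroid lists and Bcat1 could also be named. The leukemias, gene lists and rules were chosen with earlier results of these data known. Alternatives are given in the closing section. Total depth limits low genes most, and the libraries are not stated to be separate animals. Some members of the gene lists are counted but not reported here by name.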

Additional observations from a re-analysis of the deposited data

Results flagged for a closer look

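Each value below is the difference between the genotypes in the rich-minus-poor log2 difference (wild type less knock-out), past an adjusted p of 0.05 in edgeR's interaction test over 12 libraries and at least 1 in size. With 1 leukemia for each genotype on each side, genotype and leukemia cannot be told apart.

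Among erythroid genes the values were 1.44 for Slc11a2, -1.03 for Ftl1, -1.51 for Hfe, -1.12 for Bcl2l1, -1.16 for Cish, -1.62 for Gata2, -1.25 for Socs3, -1.85 for Bmpr1a, -1.61 for Bpgm and -1.26 for Car1. Red pulp macrophage markers gave -1.16 for Cd5l and -1.51 for Itgad.

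Among the genes that could be named, the greatest interactions toward wild type were 6.93 for Slc9a2, 6.93 for Cux2, 6.22 for Fam163b, 6.11 for Pde9a and 6.10 for Syt14. Toward knock-out they were -9.94 for Mn1, -7.02 for Ntrk3, -6.54 for Grin2c, -6.42 for Dpf1 and -5.89 for Prr29.

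Among genes that stood apart between rich and poor leukemias, Cacna1g was at 1.92 and H19 at 1.38. Negative values, here a deeper drop in the wild-type pair, were -4.70 for Retnla, -4.07 for H2-M2, -2.56 for Arg1, -2.11 for Mmp12, -3.65 for Ccl8, -2.24 for Atp6v0d2, -3.03 for Slpi, -1.48 for F10, -2.58 for Mzb1, -1.57 for Mpo, -1.87 for Ccl24, -1.35 for Apol7c and -1.18 for Clec7a.

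Further members of the marker lists were Chil3 (-4.09) and Ly6c2 (-3.36) of monocytes, Ighg1 (-3.84), Derl3 (-1.90) and Jchain (-3.03) of plasma cells, H2-Ab1 (-1.25), H2-Aa (-1.26) and H2-Eb1 (-1.33) of MHC class II, and the interferon gene Oas3 (1.23).

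The held-out libraries of WT0 with ERG-245, which the split did not use, carried erythroid genes at 8.23% of counts, above the 2.58% of KO3 and the 2.65% of WT6.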

How the results depend on the processing

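The model of 2 leukemias against 2 had 2 residual degrees of freedom, and its counts of calls moved with several changes of the model. Without the filter on low counts it called 452 genes higher and 147 lower, and with DESeq2 717 and 232. The share of higher calls was 98.8% as reported, 75.5% without the filter and 75.6% with DESeq2. With genotype as a covariate, or with 1 leukemia left out, edgeR called 0 genes higher and 0 lower, with 1296 and with 994 to 2286 genes at an unadjusted p under 0.05. Where 1 leukemia was left out, the lone leukemia was assumed to vary like the other side. Treating the 12 libraries as replicates gave 5305 and 5953 calls, and the replicate block on the same libraries 5274 and 5919. Scaling with DESeq2 size factors gave 156 and 2, and leaving the erythroid lists out of the scaling gave 151 and 2. Leaving out 1 library at a time gave 151 to 174 higher and 2 to 3 lower.

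Knock-out against wild type called 39 genes with DESeq2, 2 without the WT0 or the WT6 leukemia, and 0 without KO7 or KO3. For these changes the cause was not tested. Of the list medians under other scalings or without 1 leukemia, 34 moved by more than the spread (SD) between the wild-type and the knock-out pair and 194 did not. Interaction counts stayed within 1.5 times of those reported, at 5244 to 5366 and 5226 to 5327 with 1 library left out and at 5345 and 5377 with the replicate block.

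Replicate numbers did not pair the samples: over 18 same-numbered pairs the correlation of deviations from the group means was -0.0603 to 0.0357, and 1 of 12 libraries lay closest to its own number.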

Other observations

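For all 26 ribosomal protein genes, all 20 tested ribosome biogenesis genes and 22 of 24 S phase genes the signed rich-minus-poor difference was higher in wild type by edgeR's interaction test, against 35.2% of all genes tested. The median log2 difference of the ribosomal protein genes was 0.06 for WT0 minus WT6 and -0.51 for KO7 minus KO3, that of the ribosome biogenesis genes 0.14 and -0.47, and that of the S phase genes 0.45 and -0.04. With 1 leukemia for each genotype on each side, genotype and leukemia cannot be told apart. Ribosomal protein genes took 5.26% of counts in KO3, 4.12% in WT0, 4.08% in WT6 and 3.58% in KO7. Erythroid and ribosomal shares are parts of the same total.

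3 genes of heme and iron handling macrophages were looked up after their values were seen. Hmox1, heme oxygenase 1, was at 587 ± 2.31 CPM (SD, n = 3 libraries) in KO7 and at 160.4 ± 1.7 in WT0, 166 ± 3.9 in WT6 and 173 ± 1.94 in KO3. Vcam1, an adhesion molecule, was at 1098 ± 13.2 CPM in KO7 and at 307 ± 5.35, 414 ± 5.81 and 400.0 ± 3.67 in the same 3 leukemias. Spic, a transcription factor of red pulp macrophages, was at 126 ± 3.19 CPM in KO7 and at 35.7 ± 2.27, 37.7 ± 1.36 and 38 ± 1.76. Each was highest in KO7, and WT0, the other rich leukemia, was not above the poor ones.

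In the held-out libraries platelet genes took 0.00626% of counts, against 0.0201% to 0.0274% in the 4 leukemias, and neutrophil genes 0.00149%. Basophil and mast cell genes took 0.0128%, above the 0.000998% to 0.00558% of the 4 leukemias.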
